A study of Pyrus communis with 12 samples.

Results

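ABC transporters are membrane proteins that use ATP to move compounds across membranes, and the genes that encode them were followed here in the skins of young pears. They were taken from the gene table as every gene whose domain name contains "ABC transporter" or "ABC-2", which gave 172 of 42760 genes. The samples were fruit skins, pooled over many fruits per replicate, of the cultivar ‘Red Clapp Favorite’ (‘RCF’), a red bud sport, and of ‘Clapp Favorite’ (‘CF’), the green cultivar in which it arose. Both came from 6-year-old trees grafted on Pyrus betulaefolia, and skins were collected at 5 days after full bloom (DAFB), when the cultivars differed in color (‘RCF2’ and ‘CF2’), and at 2 DAFB, when both were green (‘RCF1’ and ‘CF1’). There were 3 libraries per group and 12 in all. Each stage was 1 collection date, so stage and date cannot be told apart.

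An ABC transporter pairs nucleotide-binding domains, which hydrolyze ATP, with domains that span the membrane. In plants, proteins with type 1 membrane domains belong largely to the ABCB subfamily, which includes auxin carriers, and to the ABCC subfamily, members of which move glutathione conjugates and, in grape and maize, take part in placing anthocyanins in the vacuole. Proteins with the ABC-2 membrane domain are mostly of the ABCG subfamily, which exports lipids of the cuticle among other compounds, and its full-size members, the pleiotropic drug resistance (PDR) transporters, export terpenoids, hormones and other small molecules.

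The 172 genes were sorted into 4 classes by the domain name the table gives. There were 62 genes named for the type 1 membrane domain, 27 for the PDR transporters and 22 for the ABC-2 membrane domain. The other 61 carried a name of the nucleotide-binding domain or a special name: 50 were listed by the conserved site of the ABC domain, 9 as ABC transporter-like, 1 as ABCE, which in other eukaryotes acts in ribosome recycling, and 1 as CcmA, which in bacteria and plant mitochondria serves in cytochrome c maturation. A single name is given per gene, so a gene listed for its conserved site may belong to any subfamily. The study's own annotation gave a closer name for 4 of them. PCP021647 was named after ABCC10 of Arabidopsis, PCP010342 after ABCG15 of Arabidopsis, and PCP029374 and PCP018510 after NpPDR1 and NpPDR2 of the tobacco relative Nicotiana plumbaginifolia. In that species NpPDR1 secretes the antifungal diterpene sclareol.

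Levels are given as FPKM, fragments per gene after division by gene length and by library size. Genes were tested when 3 or more libraries had an FPKM of 1 or above, which 87 of the 172 genes (50.6%) had, against 60.1% of all genes. The tested genes were 29 of 62 for the type 1 domain, 37 of 61 for the nucleotide-binding class, 14 of 27 for the PDR class and 7 of 22 for the ABC-2 class. Of the 85 that were not tested, 22 were listed at 0 in all libraries, which is 12.8% of the family against 18.2% of all genes. The other 63 had some signal under the limit. Gene models under 1500 bases made up 15 of the 85 untested genes and 5 of the 87 tested ones.

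Summed over the family, FPKM lay between 1202 and 1308 in ‘RCF2’ and between 1293 and 1338 in ‘RCF1’, against 1215 to 1380 in ‘CF2’ and 1281 to 1496 in ‘CF1’. The groups overlapped, and the family took between 0.201% and 0.237% of the FPKM of all genes in every library. It was carried by few genes, since the 10 with the highest mean supplied between 42.2% and 52.0% of the sum. An FPKM of 10 was reached by 48 genes in at least 1 library and by 23 genes in every library. FPKM is per length and per library, so levels can be set side by side between genes, but in bulk skin fewer cells of a type and less RNA per cell cannot be told apart.

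The 10 genes with the highest mean FPKM came from every class. The PDR gene PCP001323 was first with a mean of 103.8 FPKM, and another PDR gene, PCP016655, had 63.3. PCP002982 (type 1 domain, 91.4 FPKM), PCP016496 (conserved site, 67.7) and PCP030474 (conserved site, 55.3) stood beside them. PCP010340, PCP025906, PCP015710, PCP011772 and PCP005452 followed between 46.9 and 40.6 FPKM, and PCP015710 was the only ABC-2 gene among them. Some of these were even across the libraries. PCP016496 had 61.2, 65.4 and 61.1 FPKM in ‘RCF2’ and 69.3, 66.5 and 73.4 in ‘RCF1’, against 66.2, 73.4 and 67.4 in ‘CF2’ and 66.7, 72.3 and 69.0 in ‘CF1’. Its log2 fold changes lay between −0.15 and 0.01 in the 4 comparisons. The single gene listed as CcmA, PCP044412, was similarly even, between 8.21 and 10.4 FPKM in all libraries. The single gene listed as ABCE, PCP012819, a model of 1503 bases, was not tested and reached no more than 0.43 FPKM. As a single name is given per gene, other ABCE genes may be listed under another name.

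The replicates were close in all groups but ‘CF1’. On the log2(FPKM + 1) scale the median SD over the 87 tested genes was 0.097 in ‘RCF2’, 0.113 in ‘RCF1’, 0.118 in ‘CF2’ and 0.285 in ‘CF1’, and 0.154 in ‘CF1’ without replicate 3. In that replicate 13 of the 87 genes were further than 1 log2 unit from the average of its fellow replicates, 9 of them lower, which is 14.9% of the genes tested in the family against 18.4% of all genes. ‘CF1’ replicate 2 had 12 such genes, ‘CF1’ replicate 1 had 3, ‘CF2’ replicate 1 had 1, and the other libraries had 0. Genes of dividing cells, chosen by the domain names for kinesins, cyclins and tubulins, were lowest in the same library. Of 353 such genes 307 were seen, and their summed FPKM was 5071 to 5274 in ‘RCF2’, 4586 to 5093 in ‘RCF1’, 5164 to 5451 in ‘CF2’ and 2098 to 4585 in ‘CF1’, with 2098 in replicate 3. MADS-box genes, a list of 54 with 29 seen, summed to 10.9 to 13.0 FPKM in ‘RCF2’ and 14.9 to 17.9 in ‘RCF1’, against 11.99 to 13.5 in ‘CF2’ and 15.3 to 17.7 in ‘CF1’. The list for surface lipids of the skin found 1 gene, so the labelled tissue could not be checked by it. The part of these lists in the results for ABC transporters was not tested, and values without ‘CF1’ replicate 3 are given for some of the results only.

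**Figure D1:**
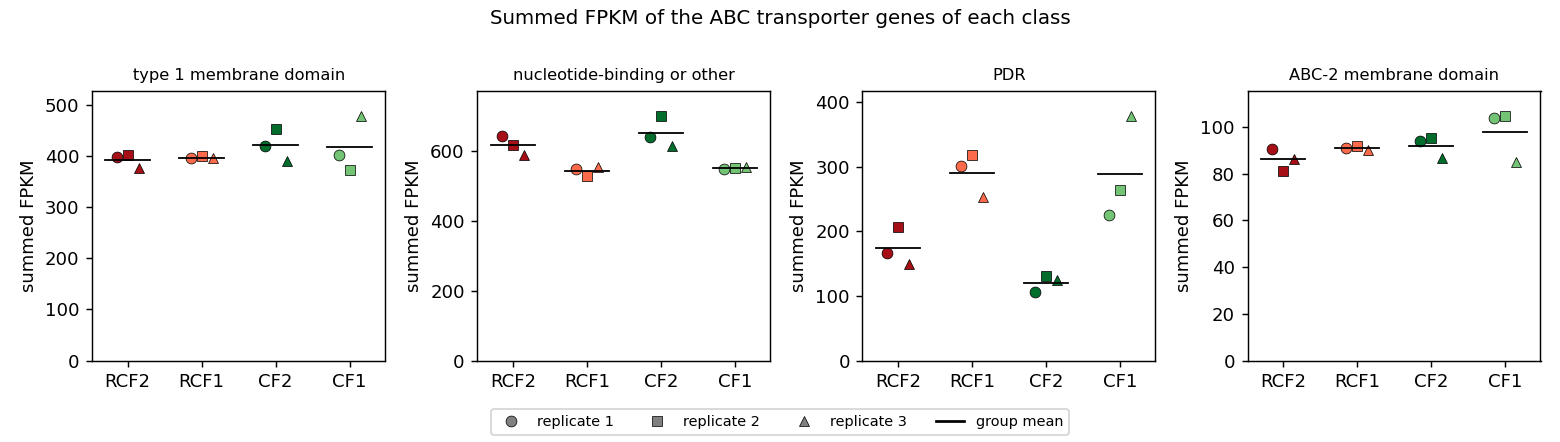
Summed FPKM of the ABC transporter genes of each class (y axis, from 0) in the libraries of ‘RCF2’, ‘RCF1’, ‘CF2’ and ‘CF1’ (x axis). Points are libraries, shapes are replicate numbers and bars are group means. The PDR sum was lower in all 5 DAFB libraries than in all 2 DAFB libraries, while the type 1 sums overlapped.

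The comparison of 5 with 2 DAFB within a cultivar asks which transporters moved as the young fruit developed and, in ‘RCF’, turned red. A gene was called when limma gave an unadjusted P under 0.05 and a log2 fold change of at least 1 in size. In ‘RCF2’ vs. ‘RCF1’ 6 of the 87 genes were called, 2 higher and 4 lower, and all 6 also passed with the Benjamini-Hochberg adjusted P of limma. That is 6.90% of the family, where 10.3% of all genes were called (3.54% higher and 6.71% lower) and 10.2% passed with the adjusted P. In ‘CF2’ vs. ‘CF1’ 18 were called, 9 higher and 9 lower, or 20.7% against 17.1% of all genes (7.23% higher and 9.91% lower), and 12 of them passed with the adjusted P, against 12.6% of all genes. Neither share kept its side of the background in every setting. With a pseudocount of 0.1 it was 20.7% in ‘RCF’ against 14.9% of all genes, and when ‘CF2’ replicate 1 was left out it was 13.8% in ‘CF’ against 14.2%. The family's median log2 fold change was 0.02 in ‘RCF’ and 0.03 in ‘CF’, where the medians over all genes were 0.02 and 0.16. In ‘CF2’ vs. ‘CF1’ the count with the adjusted P depended on single libraries. It was 0 when ‘CF2’ replicate 1 or 2 was left out and 1 when ‘CF2’ replicate 3 was. It was 5 when ‘CF1’ replicate 1 was left out, 23 when ‘CF1’ replicate 2 was and 13 when ‘CF1’ replicate 3 was.

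The 6 genes called in ‘RCF’ were all among the 18 called in ‘CF’, in the same direction. The 2 comparisons have no library in common. PCP001323, PCP029374, PCP044057 and PCP021647 fell at 5 DAFB in both cultivars, and PCP030474 and PCP006030 rose in both. Over the 87 genes, 70 had the same sign of change in the 2 cultivars, and the changes correlated across genes with Pearson's r = 0.859 and Spearman's rho = 0.816. Over all 25707 tested genes r was 0.845 and rho was 0.777. Both are given as descriptions across genes, which are not independent replicates. Without ‘CF1’ replicate 3 r was 0.903 over the family and 0.852 over all genes.

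**Figure D2:**
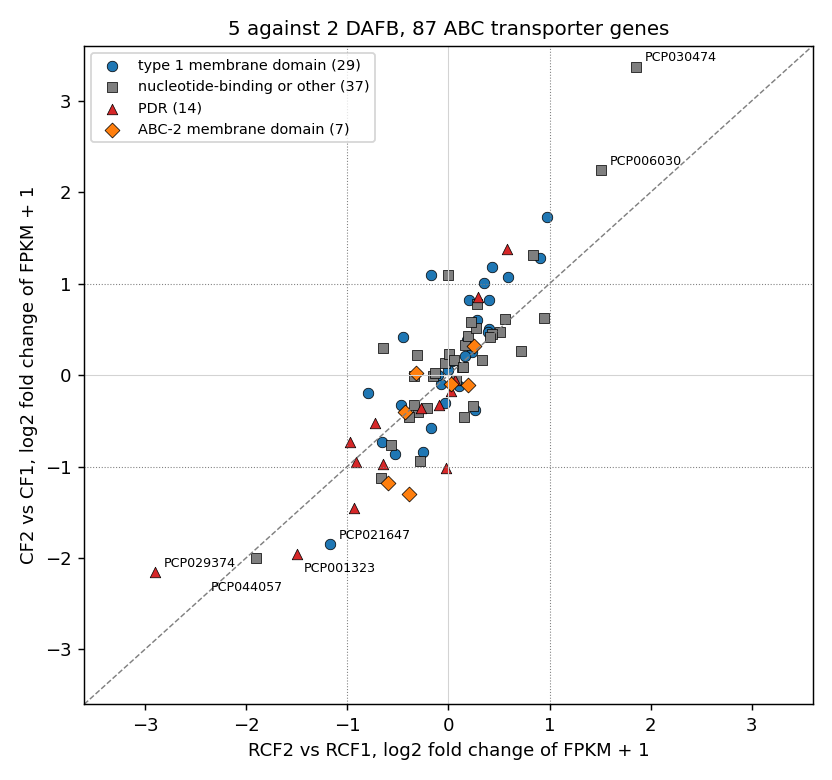
Log2 fold change of FPKM + 1 at 5 against 2 DAFB in ‘RCF’ (x axis) and in ‘CF’ (y axis) for the 87 tested ABC transporter genes, colored by class. The dashed line marks equal change, dotted lines a log2 fold change of 1 in size, and labels the 6 genes called in both cultivars. PDR genes sit mostly at the lower left, and PCP030474 and PCP006030 at the upper right.

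PCP001323, the most abundant gene of the family, lies on scaffold02441 from 24146 to 31480. It had 55.3, 71.1 and 43.3 FPKM in ‘RCF2’, against 162, 178 and 137 in ‘RCF1’. In ‘CF2’ it had 35.8, 40.2 and 39.7 FPKM, against 119, 124 and 240 in ‘CF1’. All 5 DAFB libraries were below all 2 DAFB libraries in both cultivars. The log2 fold change (± SE, as for all fold changes given) was −1.50 ± 0.18 in ‘RCF’ (limma, adjusted P = 0.00039) and −1.96 ± 0.29 in ‘CF’ (adjusted P = 0.0125). The fall in both cultivars was called under every alternative tried. At 2 DAFB it was the most abundant of the 172 genes in 5 of the 6 libraries, and at 5 DAFB in 0 of 6.

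PCP029374, named after the sclareol exporter NpPDR1, fell to low levels. It had 0.346, 0.276 and 0.193 FPKM in ‘RCF2’, against 10.7, 11.2 and 5.03 in ‘RCF1’. In ‘CF2’ it had 0.902, 0.703 and 0.715 FPKM, against 4.61, 13.6 and 4.97 in ‘CF1’. The groups did not overlap, and the changes of −2.90 ± 0.25 in ‘RCF’ (limma, adjusted P = 9.93e-05) and −2.15 ± 0.38 in ‘CF’ (adjusted P = 0.0181) on the log2(FPKM + 1) scale understate the ratio at such low levels. With a pseudocount of 0.1 the change in ‘RCF’ was −4.54. This was the largest fall of the family in each cultivar. No 5 DAFB library reached an FPKM of 1, so the gene was tested because of its 2 DAFB levels.

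PCP021647, the gene named after ABCC10, fell in both cultivars. It had 19.4, 16.8 and 18.3 FPKM in ‘RCF2’, against 47.7, 39.6 and 39.5 in ‘RCF1’. In ‘CF2’ it had 13.6, 16.2 and 13.8 FPKM, against 49.6, 38.5 and 86.2 in ‘CF1’. All 5 DAFB libraries were lower than all 2 DAFB libraries. The log2 fold change was −1.17 ± 0.10 in ‘RCF’ (limma, adjusted P = 7.78e-05) and −1.85 ± 0.30 in ‘CF’ (adjusted P = 0.0149). PCP044057, listed by the conserved site, had 2.37, 2.86 and 2.92 FPKM in ‘RCF2’, against 15.5, 10.2 and 13.5 in ‘RCF1’. In ‘CF2’ it had 3.40, 3.92 and 4.03 FPKM, against 14.6, 10.6 and 37.9 in ‘CF1’. The falls of −1.90 ± 0.15 and −2.004 ± 0.44 were of like size, with limma adjusted P = 5.86e-05 in ‘RCF’ and 0.029 in ‘CF’. In PCP001323, PCP044057 and PCP021647 the highest value of all was that of ‘CF1’ replicate 3, and all 3 genes were still called in ‘CF’ without that library, at −1.63, −1.49 and −1.53.

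PCP030474, on scaffold00060 from 388319 to 395277, was the gene that rose most. It had 96.4, 86.5 and 74.8 FPKM in ‘RCF2’, against 18.1, 22.6 and 29.2 in ‘RCF1’. In ‘CF2’ it had 87.8, 109.9 and 90.0 FPKM, against 22.5, 26.0 and 0.266 in ‘CF1’. Both cultivars reached a similar level at 5 DAFB, and in 5 of the 6 libraries of that stage it was the most abundant of the family. The rise was 1.86 ± 0.17 on the log2 scale in ‘RCF’ (limma, adjusted P = 0.000114). In ‘CF’ it was 3.37 ± 1.17 (limma, adjusted P = 0.0794), and without ‘CF1’ replicate 3, the library at 0.266 FPKM, it was 1.94 with adjusted P = 0.00113. The call in ‘CF’ was lost when any of the ‘CF2’ replicates was left out and with a pseudocount of 0.1, and that in ‘RCF’ was lost in 1 fit of all libraries.

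PCP006030, another gene listed by the conserved site, moved in the same way. It had 17.7, 18.3 and 15.8 FPKM in ‘RCF2’, against 5.00, 4.79 and 6.55 in ‘RCF1’. In ‘CF2’ it had 25.4, 23.4 and 22.7 FPKM, against 7.70, 11.1 and 0.370 in ‘CF1’. Again the low value of ‘CF1’ was that of replicate 3. The rise was 1.51 ± 0.12 in ‘RCF’ (limma, adjusted P = 6.04e-05) and 2.24 ± 0.80 in ‘CF’ (adjusted P = 0.0841), or 1.27 in ‘CF’ without replicate 3 (adjusted P = 0.00325). The call in ‘CF’ was lost under the same settings as that of PCP030474, that in ‘RCF’ under none. At 5 DAFB all ‘RCF2’ libraries lay below all ‘CF2’ libraries, with a log2 fold change of −0.44 ± 0.08, inside the fold limit for a call.

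**Figure D3:**
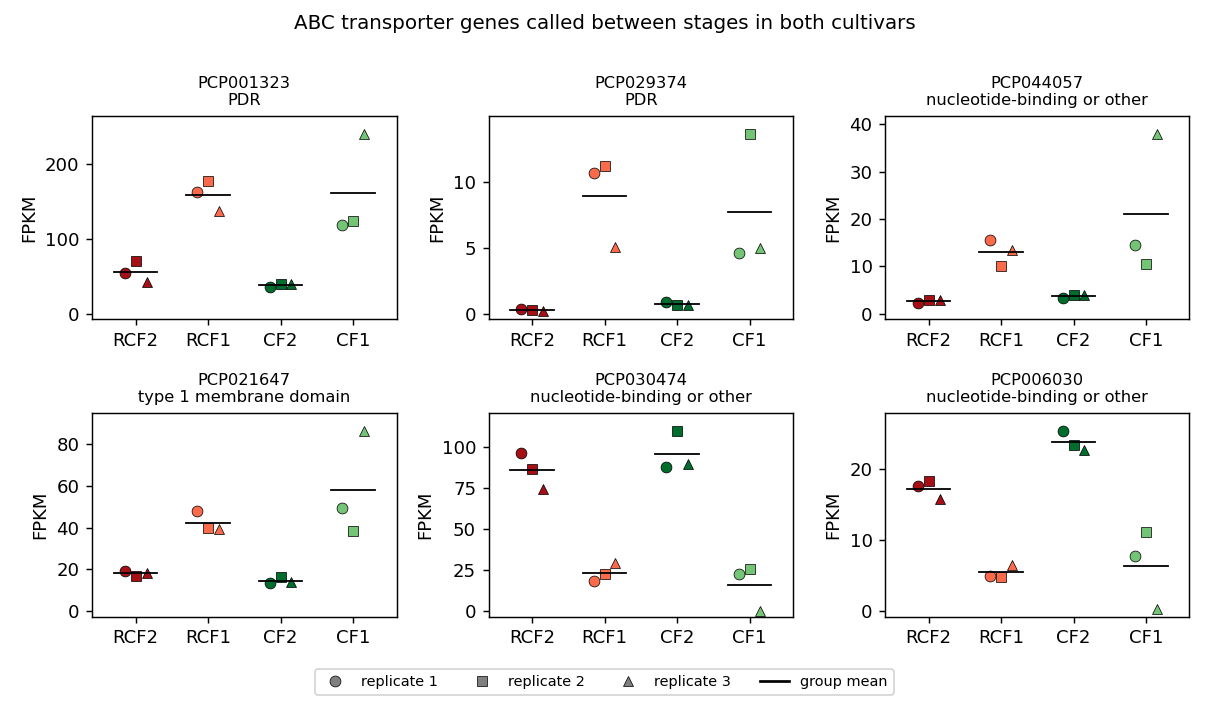
FPKM (y axes, separate scales) of the 6 ABC transporter genes called between stages in both cultivars, in ‘RCF2’, ‘RCF1’, ‘CF2’ and ‘CF1’ (x axes). Points are libraries, shapes are replicate numbers and bars are group means. The first 4 genes were lower at 5 DAFB and the last pair higher, and ‘CF1’ replicate 3 was low in PCP030474 (0.266 FPKM) and PCP006030 (0.370 FPKM).

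The other 12 genes were called in ‘CF2’ vs. ‘CF1’ alone. Of these, 7 rose. PCP025056 had 42.7, 43.5 and 39.4 FPKM in ‘CF2’, against 13.4, 24.1 and 13.1 in ‘CF1’, a change of 1.32 ± 0.24 (limma, adjusted P = 0.0205). In ‘RCF’ it had 50.1, 35.0 and 47.5 FPKM in ‘RCF2’, against 28.3, 23.4 and 20.8 in ‘RCF1’, a change of 0.84 ± 0.16 with adjusted P = 0.00357. The groups did not overlap in either cultivar, and the change in ‘RCF’ missed the fold limit only. The same held for PCP004325 (PDR; 1.37 in ‘CF’, 0.58 in ‘RCF’), PCP013935 (type 1; 1.01 and 0.35), PCP001023 (type 1; 1.28 and 0.91), PCP002960 (type 1; 1.08 and 0.59) and PCP025791 (type 1; 1.18 and 0.43). In each the ‘RCF2’ libraries lay above the ‘RCF1’ libraries. PCP015097 was the exception, at 1.10 ± 0.40 in ‘CF’ and 0.00 ± 0.16 in ‘RCF’. Without ‘CF1’ replicate 3 the rises of PCP013935 (0.83), PCP002960 (0.66), PCP025791 (0.90) and PCP015097 (0.62) in ‘CF’ were inside the fold limit. Those of PCP013935, PCP002960 and PCP015097 were also lost without ‘CF2’ replicate 1 or 2.

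The 5 that fell in ‘CF’ alone were the PDR genes PCP016655 and PCP002741, the ABC-2 genes PCP032397 and PCP017673, and PCP011281, listed as ABC transporter-like. PCP002741 had 4.35, 3.87 and 3.83 FPKM in ‘CF2’, against 14.2, 5.93 and 23.3 in ‘CF1’, and the change was −1.45 ± 0.44 (limma, adjusted P = 0.0594). In ‘RCF’ it had 3.98, 3.59 and 3.67 FPKM in ‘RCF2’, against 9.90, 5.31 and 9.77 in ‘RCF1’, a difference of −0.93 ± 0.20 (adjusted P = 0.00734). Both pairs of groups were apart, and the value in ‘RCF’ was just inside the fold limit. PCP032397 had 1.15, 1.18 and 0.743 FPKM in ‘CF2’, against 2.85, 3.52 and 4.47 in ‘CF1’, and PCP011281 had 1.19, 0.592 and 0.928 against 2.50, 3.13 and 3.84. Their changes were −1.18 and −1.13. These models span 657 and 792 bases, PCP017673 spans 1027 bases, and all 3 begin at the first bases of their scaffolds. PCP017673 reached an FPKM of 1 in the ‘CF1’ libraries only, so it was tested because of the group in which it was high. PCP011281 would not have met the filter on its 5 DAFB libraries alone, so it was tested because of its 2 DAFB levels. The calls of PCP032397 and PCP011281 were lost with array weights, and that of PCP016655 was lost with array weights, with rescaling to TPM and without ‘CF1’ replicate 2, ‘CF1’ replicate 3 or ‘CF2’ replicate 1.

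The test of the difference itself, the change in ‘RCF’ minus the change in ‘CF’ over all 12 libraries, called 2 of the 87 genes (2.30%, against 3.96% of all genes). Both were lower in ‘RCF’, and neither passed with the adjusted P of limma. A total of 17 genes had an unadjusted P under 0.05 at any fold, or 19.5% against 15.8% of all genes. PCP000168 (type 1 domain) had 39.0, 41.0 and 39.9 FPKM in ‘RCF2’ and 41.0, 45.7 and 48.9 in ‘RCF1’, against 48.9, 48.2 and 41.4 in ‘CF2’ and 27.0, 36.3 and 9.22 in ‘CF1’. Its difference was −1.27 ± 0.51 (limma, adjusted P = 0.29). PCP015097 (conserved site) had 4.87, 3.06 and 3.61 FPKM in ‘RCF2’ and 3.09, 4.26 and 4.10 in ‘RCF1’, against 5.31, 5.10 and 5.20 in ‘CF2’ and 3.28, 2.81 and 0.493 in ‘CF1’, a difference of −1.10 ± 0.47 (adjusted P = 0.304). In both, the lowest library was ‘CF1’ replicate 3. Without it the differences were −0.71 and −0.62, and 0 of the 87 genes were called by limma. The count was also 0 without ‘RCF1’ replicate 2, ‘RCF2’ replicate 2, ‘RCF2’ replicate 3 or ‘CF2’ replicate 1, 1 without ‘RCF1’ replicate 3, 4 without ‘RCF1’ replicate 1 and 9 without ‘CF1’ replicate 2, where 9 is 10.3% of the family against 11.2% of all genes. Among the 12 genes called in ‘CF’ alone, a difference between the cultivars was called for PCP015097 only.

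**Figure D4:**
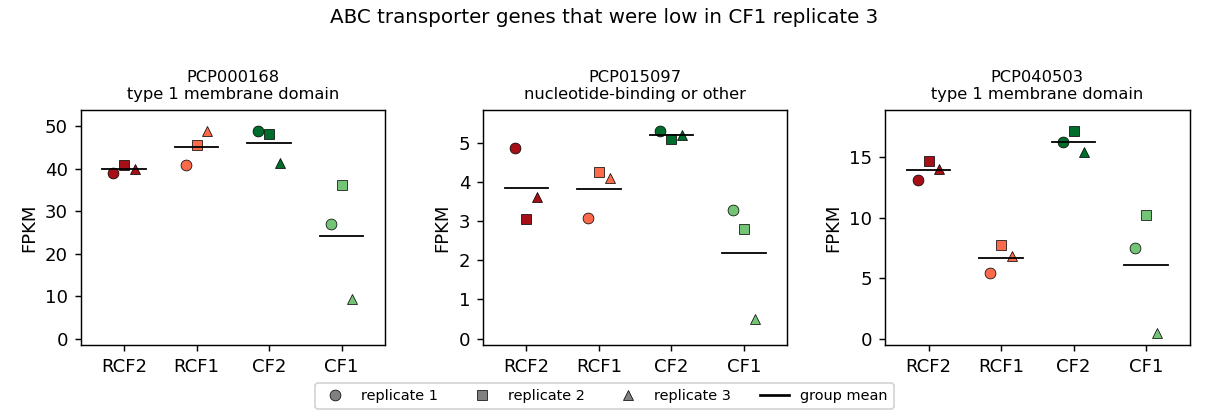
FPKM (y axes, separate scales) of PCP000168 and PCP015097, called in the difference between cultivars of the stage change, and of PCP040503, a type 1 gene chosen after its values were seen. Points are libraries in ‘RCF2’, ‘RCF1’, ‘CF2’ and ‘CF1’ (x axes), shapes are replicate numbers and bars are group means. In all 3 genes the lowest point is ‘CF1’ replicate 3, at 9.22, 0.493 and 0.493 FPKM.

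Between stages the classes are described by their counts and medians, and no difference between classes was tested. Of the 14 tested PDR genes 10 had a lower mean log2 value at 5 DAFB in ‘RCF’ and 12 in ‘CF’, with medians of −0.46 and −0.63, against 0.02 and 0.16 over all genes. Among them 0 were called higher and 2 lower in ‘RCF’ by limma, and 1 higher and 4 lower in ‘CF’. With a pseudocount of 0.1 these were 0 higher and 7 lower in ‘RCF’ and 2 higher and 7 lower in ‘CF’. The median was below 0 under every alternative tried, from −0.73 to −0.38 in ‘RCF’ and from −0.90 to −0.45 in ‘CF’. The PDR genes PCP029374, PCP012672 and PCP031296 met the filter through their 2 DAFB libraries and would not have met it on those of 5 DAFB alone. They entered these counts and medians because of the stage in which they were high, and the part of this selection was not tested. The 29 type 1 genes had medians of 0.11 and 0.20, with 0 called higher and 1 lower in ‘RCF’ and 4 higher and 1 lower in ‘CF’. Without ‘CF1’ replicate 3 the type 1 median in ‘CF’ was 0.09 with 1 higher and 1 lower, and all genes had 0.09; 2 were higher without ‘CF2’ replicate 1 or 2, and 6 higher and 3 lower without ‘CF1’ replicate 2. For the 37 genes of the nucleotide-binding class the medians were 0.14 and 0.16, with 2 higher and 1 lower in ‘RCF’ and 4 higher and 2 lower in ‘CF’. The 4 were 1 when any of the ‘CF2’ replicates was dropped, and the 2 lower were 4 when ‘CF1’ replicate 2 was. Without ‘CF1’ replicate 3 the median of this class in ‘CF’ was 0.11, with 3 higher and 2 lower. PCP011281, called lower in ‘CF’ in this class, was tested because of its 2 DAFB levels, as was PCP017673 in the ABC-2 class. Of the 7 ABC-2 genes, 0 were called in ‘RCF’ and 2, both lower, in ‘CF’. At an unadjusted P under 0.05 and any fold, 2 of the 14 PDR genes were higher and 8 lower in ‘RCF’ and 2 higher and 7 lower in ‘CF’, or 71.4% and 64.3%, against 51.9% and 44.3% of all genes. For the ABC-2 class 2 were higher and 3 lower in ‘RCF’, and 0 higher and 2 lower in ‘CF’ by limma.

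The summed FPKM of the 27 PDR genes was 150 to 208 in ‘RCF2’, against 253 to 319 in ‘RCF1’, and 106 to 131 in ‘CF2’, against 225 to 379 in ‘CF1’. The stages did not overlap. PCP001323 and PCP016655 together made up between 52.3% and 82.2% of this sum. Without them the PDR sum was 39.3 to 48.3 in ‘RCF2’, against 52.2 to 57.5 in ‘RCF1’, and 44.2 to 50.6 in ‘CF2’, against 54.6 to 69.7 in ‘CF1’, so the other 25 genes were also lower at 5 DAFB when summed. The nucleotide-binding class was higher at 5 DAFB, with 589 to 644 FPKM in ‘RCF2’, against 529 to 555 in ‘RCF1’, and 614 to 701 in ‘CF2’, against 550 to 553 in ‘CF1’. That difference rested on 1 gene. Without PCP030474 the sums were 514 to 548 in ‘RCF2’ and 506 to 530 in ‘RCF1’, and 524 to 591 in ‘CF2’ and 526 to 553 in ‘CF1’, and the stages overlapped.

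Smaller shifts were frequent. The groups did not overlap in 61 of the 87 genes in ‘RCF2’ vs. ‘RCF1’ (32 higher, 29 lower), or 70.1% against 56.5% of all genes (29.8% higher, 26.6% lower), and in 53 in ‘CF2’ vs. ‘CF1’ (30 higher, 23 lower), or 60.9% against 58.9% (36.1% higher, 22.8% lower). In 19 genes all 6 libraries of 5 DAFB lay above all 6 of 2 DAFB, and in 13 genes they lay below, which is 21.8% and 14.9% of the family against 18.2% and 14.2% of all genes. PCP029374, PCP012672 and PCP011281, which would not have met the filter on their 5 DAFB libraries alone, were lower in this way. The 13 that were lower were 6 of the 14 PDR genes, 5 type 1 genes and 2 of the nucleotide-binding class. PCP018510, the gene named after NpPDR2, was one of them: it had 0.714, 0.793 and 0.514 FPKM in ‘RCF2’, against 2.06, 2.82 and 2.03 in ‘RCF1’, and 1.35, 1.61 and 1.76 in ‘CF2’, against 3.65, 2.995 and 3.19 in ‘CF1’. Its differences of −0.98 and −0.73 were inside the fold limit. PCP005452, a type 1 gene, was among the 19 that were higher, with 52.3, 51.3 and 45.7 FPKM in ‘RCF2’, against 36.6, 37.0 and 38.2 in ‘RCF1’, and 45.2, 56.5 and 43.2 in ‘CF2’, against 27.8, 29.6 and 23.4 in ‘CF1’.

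The comparison of the cultivars at one stage asks which transporters differ between the red sport and the green cultivar. Their skins differed in color at 5 DAFB, and both were green at 2 DAFB. At 5 DAFB 2 of the 87 genes were called in ‘RCF2’ vs. ‘CF2’, both higher, or 2.30% against 1.26% of all genes (0.902% higher and 0.358% lower), and 1 of them passed with the adjusted P of limma, against 1.07% of all genes. At 2 DAFB 1 gene was called in ‘RCF1’ vs. ‘CF1’, lower, or 1.15% against 2.89% of all genes (1.02% higher and 1.87% lower), and 0 passed with the adjusted P of limma, against 0.0233% of all genes. In that comparison 13 of the 87 genes had an unadjusted P under 0.05 at any fold, or 14.9% against 15.6% of all genes. The median log2 fold changes of the family were −0.03 at 5 DAFB and 0.05 at 2 DAFB, where all genes had −0.01 and 0.12. The count at 5 DAFB was 1 without ‘RCF2’ replicate 2 or ‘CF2’ replicate 1. At 2 DAFB it was 8 without ‘CF1’ replicate 2, a share of 9.20% against 9.18% of all genes, 2 when ‘RCF1’ replicate 1 or ‘CF1’ replicate 1 was dropped, and 0 when replicate 3 of either group was. Chlorophyll-binding proteins, a list of 54 genes chosen after the table was seen, summed to 3496 to 3991 FPKM in ‘RCF2’, against 4927 to 5450 in ‘CF2’, and to 2755 to 3472 in ‘RCF1’, against 3831 to 4829 in ‘CF1’. They were lower in every ‘RCF’ library than in any ‘CF’ library of the same stage, and their part in the results was not tested.

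PCP010342, named after ABCG15 and listed on scaffold00407 from 18726 to 24630, was the gene that passed. It had 3.96, 3.73 and 3.36 FPKM in ‘RCF2’, against 1.15, 1.11 and 1.03 in ‘CF2’, a difference of 1.16 ± 0.09 on the log2 scale (limma, adjusted P = 0.00188). The groups did not overlap, and the call held under every alternative tried, with adjusted P between 0.00186 and 0.0178. At 2 DAFB it had 1.95, 1.91 and 1.71 FPKM in ‘RCF1’, against 0.640, 1.17 and 0.482 in ‘CF1’. Those groups were apart too, but the difference of 0.71 ± 0.17 (adjusted P = 0.222) was below the fold limit. Within ‘RCF’ the gene had 0.71 ± 0.10 more at 5 than at 2 DAFB (adjusted P = 0.000859), and within ‘CF’ 0.27 ± 0.17 (limma, adjusted P = 0.261). The difference between these changes was 0.45 ± 0.19 (adjusted P = 0.307), which was not called. Its neighbour PCP010340, which ends 15658 bases away, was among the 10 most abundant genes and was lower in every ‘RCF2’ library than in any ‘CF2’ library, with 44.9, 32.7 and 34.8 FPKM in ‘RCF2’, against 57.3, 65.3 and 45.3 in ‘CF2’.

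PCP016655, the second most abundant PDR gene (scaffold00331, 3466 to 11003), had 62.5, 97.3 and 67.3 FPKM in ‘RCF2’, against 19.7, 40.7 and 40.5 in ‘CF2’. At 2 DAFB it had 81.4, 83.9 and 63.4 FPKM in ‘RCF1’, against 47.8, 86.1 and 69.1 in ‘CF1’. The cultivars were apart at 5 DAFB and overlapped at 2 DAFB. The difference at 5 DAFB was 1.19 ± 0.29 (limma, adjusted P = 0.0501), and the call was lost without ‘RCF2’ replicate 2 or ‘CF2’ replicate 1. It fell by 1.02 ± 0.35 in ‘CF2’ vs. ‘CF1’ (adjusted P = 0.078), and in ‘RCF2’ vs. ‘RCF1’ it had −0.03 ± 0.18 (adjusted P = 0.916). The difference between the cultivars in the stage change was 0.99 ± 0.43 (adjusted P = 0.307), at the edge of the fold limit and not called.

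PCP017673, a short ABC-2 model, was the gene called at 2 DAFB. It had 0.694, 0.517 and 0.217 FPKM in ‘RCF1’, against 1.80, 1.26 and 3.51 in ‘CF1’, a difference of −1.06 ± 0.29 (limma, adjusted P = 0.245). At 5 DAFB it had 0.153, 0.164 and 0.045 FPKM in ‘RCF2’, against 0.340, 0.115 and 0.277 in ‘CF2’, and the groups overlapped. The gene was near the filter and reached an FPKM of 1 in the ‘CF1’ libraries only. It was therefore tested because of the group in which it was high. Its calls against ‘CF1’, here and in ‘CF2’ vs. ‘CF1’, are not independent of that selection. The call at 2 DAFB was lost without ‘CF1’ replicate 3 (−0.78), without ‘RCF1’ replicate 3 and with array weights.

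**Figure D5:**
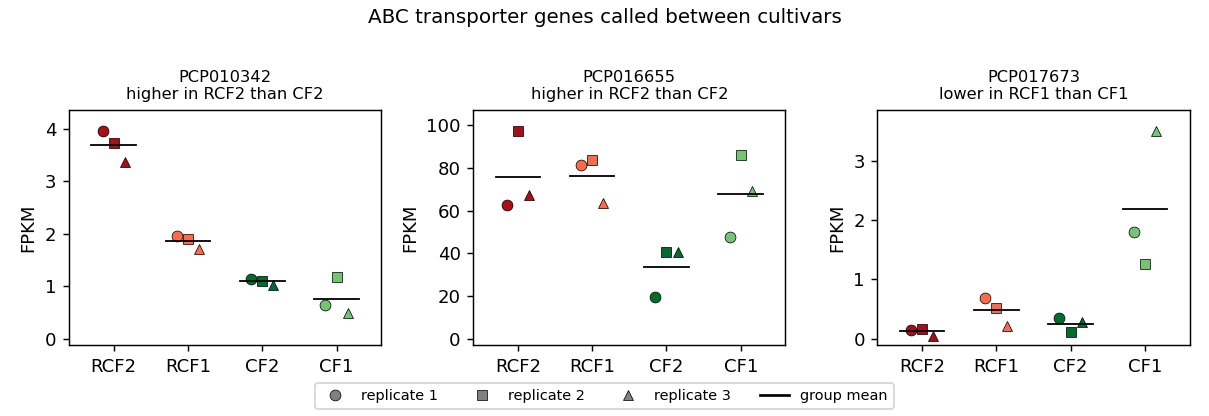
FPKM (y axes, separate scales) of the 3 ABC transporter genes called between cultivars, in ‘RCF2’, ‘RCF1’, ‘CF2’ and ‘CF1’ (x axes). Points are libraries, shapes are replicate numbers and bars are group means. PCP010342 was higher in ‘RCF’ in every library at both stages, PCP016655 was apart at 5 DAFB only, and PCP017673 was low in all groups but ‘CF1’.

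Small differences between the cultivars were more frequent than calls. At 5 DAFB the groups did not overlap in 36 of the 87 genes (16 higher, 20 lower), or 41.4% against 29.9% of all genes (14.0% higher, 15.9% lower). At 2 DAFB they did not overlap in 25 genes (19 higher, 6 lower), or 28.7% against 29.1% (20.4% higher, 8.79% lower). Groups apart in the same direction at both stages were found in 8 genes, where 6.02% of all genes had this pattern. Those higher in ‘RCF’ were PCP010342, PCP002298 and PCP029344 (conserved site), PCP016491 and PCP023920 (ABC-2) and PCP043827 (type 1). PCP023920 reached an FPKM of 1 in ‘RCF’ libraries only, so it was tested because of the cultivar in which it was high. Its place among the 8 is not independent of that selection. Those lower in ‘RCF’ were the PDR gene PCP018510 and PCP008901 (type 1).

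Apart from PCP010342 these fold changes were inside the fold limit, and on the log2(FPKM + 1) scale they understate the ratios of the low genes. PCP018510 averaged 0.674 ± 0.144 FPKM in ‘RCF2’ and 1.58 ± 0.21 in ‘CF2’ (SD, n = 3 each). PCP023920, tested because of its ‘RCF’ levels, averaged 1.01 ± 0.15 in ‘RCF2’ and 0.503 ± 0.212 in ‘CF2’. PCP018510 had a log2 fold change of −0.62 ± 0.11 in ‘RCF2’ vs. ‘CF2’ (limma, adjusted P = 0.0188) and of −0.38 ± 0.15 in ‘RCF1’ vs. ‘CF1’ (adjusted P = 0.314). PCP008901 had 1.94, 1.83 and 1.64 FPKM in ‘RCF2’, against 2.51, 3.59 and 2.17 in ‘CF2’, and 1.56, 1.71 and 1.53 in ‘RCF1’, against 2.999, 2.12 and 4.21 in ‘CF1’. PCP029344 had 3.38, 3.26 and 2.86 FPKM in ‘RCF2’, against 2.36, 2.39 and 2.54 in ‘CF2’, and 3.22, 2.98 and 3.20 in ‘RCF1’, against 2.04, 2.35 and 1.48 in ‘CF1’. At both stages every ‘RCF’ library was on 1 side of every ‘CF’ library. For the others the fold changes ran from 0.13 (PCP043827) to 0.43 (PCP023920) at 5 DAFB and from 0.21 (PCP043827) to 0.32 (PCP002298) at 2 DAFB.

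The genes were spread over 140 scaffolds, with some in short runs. Within 50000 bases of each other lay 25 pairs, which held 43 of the 172 genes, and 21 pairs were of the same class. Of the paired genes 39.5% were tested, against 54.3% of the 129 unpaired ones, and in 13 pairs neither gene was. Neighbours often differed widely in level. PCP025056 had a mean of 31.8 FPKM, and PCP025055, which ends 7471 bases before it, had 0.027. PCP005452 had 40.6 FPKM and its neighbour PCP005453 had 4.59. The PDR genes PCP018509, PCP018510 and PCP018511 stand in a row on scaffold00812 from 47356 to 93740, with means of 5.00, 1.96 and 2.59 FPKM. The first and the middle gene of the row had like differences between stages, −0.91 for PCP018509 and −0.98 for PCP018510 in ‘RCF’, while PCP018511 had −0.10. Neighbours that are close copies may share reads, and how the counting treated those is not given in the sources used here.

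Below the filter, some genes still differed by stage in all libraries, at levels that rest on few fragments. They were chosen after their values were seen. PCP038854, a model of 430 bases listed as ABC transporter-like, had 0.508, 0.320 and 0.888 FPKM in ‘RCF2’ and 1.20, 0.619 and 0.862 in ‘CF2’, and was listed at 0 in all 6 libraries of 2 DAFB. The type 1 genes PCP016781, PCP017333 and PCP028141 were higher in every library of 5 DAFB than in any of 2 DAFB, with no value above 0.668 FPKM. PCP028139, on the same scaffold as PCP028141, was the reverse: it had 0.066, 0.179 and 0.029 FPKM in ‘RCF2’, against 0.471, 0.453 and 0.354 in ‘RCF1’, and 0.127, 0.121 and 0.184 in ‘CF2’, against 0.557, 0.479 and 0.539 in ‘CF1’.

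Other routes for moving pigments and conjugates were counted beside the family by their domain names. MATE transporters, which exchange compounds for protons and include flavonoid carriers of the vacuole in Arabidopsis, had 46 of 90 genes tested. Of these, 4 were called higher and 12 lower in ‘RCF2’ vs. ‘RCF1’, and 4 higher and 15 lower in ‘CF2’ vs. ‘CF1’. Over all genes 3.54% were called higher and 6.71% lower in ‘RCF’, and 7.23% higher and 9.91% lower in ‘CF’. For glutathione S-transferases, some of which bind anthocyanins, 44 of 66 were tested, with 1 higher and 10 lower in ‘RCF’ and 2 higher and 10 lower in ‘CF’. The major facilitators had 6 higher and 31 lower in ‘RCF’ and 9 higher and 43 lower in ‘CF’, of 167 tested. Of 24 tested subunits of the vacuolar proton pump, which powers MATE exchange, 0 were called by limma in any of the 4 comparisons. In ‘RCF2’ vs. ‘RCF1’ 8 had an unadjusted P under 0.05, or 33.3% against 51.9% of all genes. Between cultivars the ABC family had 2 genes called at 5 DAFB, against 0 MATE genes by limma, 1 glutathione S-transferase and 1 major facilitator. At an unadjusted P under 0.05 and any fold, 31 of the 87 ABC genes (35.6%) and 12 of the 46 MATE genes (26.1%) differed at 5 DAFB, against 24.4% of all genes. At 2 DAFB 1 ABC gene, 4 MATE genes and 10 major facilitators were called lower, and 1 glutathione S-transferase was called higher. Over all genes 1.87% were called lower and 1.02% higher at that stage.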

How the data were processed

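Skins of ‘RCF’ and ‘CF’ at 5 and 2 DAFB were sequenced in 3 libraries per group by the authors. The authors deposited 1 table of FPKM values for 42760 genes, with no build named and no further scaling between libraries stated. The submitters' processing notes list Trimmomatic 0.38, HISAT2 2.1.0, StringTie 1.3.4d and DESeq2. The paper names an apple genome for mapping, while the table uses PCP identifiers on scaffolds. FPKM carries no counts, so the fragments behind a value, and its precision at low levels, were not computed; the clean reads the study lists per library were not used here.

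Genes reaching an FPKM of 1 in 3 or more libraries (25707) were fitted as log2(FPKM + 1) with limma 3.58.1 in R 4.3.3 (lmFit, eBayes with trend, two-sided), on the 6 libraries of each pair of groups, and on all 12 for the difference between stage changes. A call had P under 0.05 and a log2 fold change of at least 1 in size, the study's limits; adjusted P values (Benjamini-Hochberg) cover all tested genes. With 3 against 3 libraries an exact permutation test cannot go below 0.1. The script was checked on simulated data. Python 3.11.15 with pandas 2.3.3 and numpy 2.4.6 served for reading, and matplotlib 3.10.9 for plots. Named genes are those called between cultivars or in the difference of changes, up to 12 called genes at each end of the fold changes per stage comparison, the 10 most abundant, and those apart in both cultivar comparisons. Members and lists were chosen with earlier results of these data known. Alternatives were a pseudocount of 0.1, no filter, rescaling to TPM, 1 fit of all libraries, array weights, a replicate block, each library left out and the adjusted P as threshold. Nothing says that replicates came from separate trees, so P values measure the spread between these samples. Marker lists came from domain names. The string set for chlorophyll-binding proteins matched 0 genes and was replaced. Genes with pollen in their domain name summed to 3478 to 3702 FPKM in ‘RCF2’, 3115 to 3688 in ‘RCF1’, 3692 to 3773 in ‘CF2’ and 3129 to 3489 in ‘CF1’.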

Additional observations from a re-analysis of the deposited data

Results flagged for a closer look

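The change between stages differed between the cultivars in 2 ABC transporter genes at an unadjusted P under 0.05 and a log2 difference of at least 1 in size, among 17 at that P and any size. For PCP000168 the change in ‘RCF’ minus that in ‘CF’ was −1.27 on the log2 scale, and for PCP015097 it was −1.10. Neither passed with the adjusted P of limma over all genes (0.29 and 0.304). In both genes the lowest of the 12 libraries was ‘CF1’ replicate 3, and without it the values were −0.71 and −0.62.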

How the results depend on the processing

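The adjusted P as threshold was left out of the counts for single genes. Of their 29 calls, 15 held under every other alternative, 14 were lost under at least 1, and 0 changed direction. Among the 15, that of PCP002741 in ‘CF2’ vs. ‘CF1’ did not pass with the adjusted P of limma (0.0594). The number of genes called in ‘RCF1’ vs. ‘CF1’ was 1, and it was 3 (3.45%) with a pseudocount of 0.1 (4.79% of all genes) or 1 fit of all libraries (4.54%), 2 with rescaling to TPM, 0 with the adjusted P and 0 (without ‘RCF1’ replicate 3 or ‘CF1’ replicate 3) to 8 (without ‘CF1’ replicate 2) with 1 library left out. With array weights 1 was called, but it was not PCP017673. In ‘RCF2’ vs. ‘CF2’ the 2 became 5 with the pseudocount of 0.1 (5.75% against 2.66% of all genes) and 1 with the adjusted P, and 1 (without ‘RCF2’ replicate 2 or ‘CF2’ replicate 1) to 2 with a library left out. In ‘RCF2’ vs. ‘RCF1’ the 6 became 18 with the pseudocount of 0.1 (5 higher, 13 lower; 20.7% against 14.9% of all genes), 10 with TPM (5 higher, 5 lower, where FPKM gave 2 and 4; 11.5% against 12.2%) and 6 to 8 with a library left out. The 18 of ‘CF2’ vs. ‘CF1’ ranged from 12 to 25 with a library left out, with 13 without ‘CF1’ replicate 3. TPM put the median log2 fold change there at 0.26 over all genes (0.16 with FPKM) and at 0.13 over the family (0.03). The 2 of the difference between stage changes became 6 with the pseudocount of 0.1 (6.90% against 5.49%), 4 with TPM (4.60% against 4.57%), 1 with array weights, 0 with the adjusted P and 0 (without ‘CF1’ replicate 3 and others) to 9 (without ‘CF1’ replicate 2) with a library left out. Causes were not tested.

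Replicate numbers did not pair the samples, with correlations of same-numbered deviations between −0.18 and 0.33. With the number as a replicate block the count in ‘RCF1’ vs. ‘CF1’ was 2 and that in ‘CF2’ vs. ‘CF1’ 20, and the other counts were 2, 6 and 2 as before. FPKM without counts sets no interval on genes near the filter.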
